A study of Mus musculus with 18 samples.

Results

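The cytosolic heat shock chaperones described here are 10 genes chosen by name: Hspa1a, Hspa1b, Hspa8, Hsp90aa1, Hsp90ab1, Hsph1, Dnajb1, Hspb1, Hsf1 and Bag3. The deposited gene counts list all 10 among 24062 genes. Of the 10, 9 passed the filter on low counts and were tested with 12140 genes in all, and Hspb1 did not pass it. The cells were NIH3T3, a line of mouse embryonic fibroblasts (called WT below), and NIH3T3-mCherry-mTRIM21, a single line that carries a fusion of mCherry and mouse TRIM21 (called TRIM21 below); the labels do not name the promoter that drives the fusion. Each line was electroporated at 1400 V with 2 pulses of 20 ms, with 7.5 µg of an IgG antibody whose target the labels do not name, with 7.5 µg of bovine serum albumin (BSA), or with PBS and no added protein. RNA was taken 16 h later. There were 6 groups of 3 libraries, whose titles carry the numbers 10, 11 and 14 in every group. All groups, PBS included, went through the pulses and were grown in calf serum, and no unpulsed, heat-shocked or earlier library was analysed here. The labels do not say that the 3 libraries of a group came from separate cultures, so the p-values measure the spread between these libraries, which may be technical.

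Heat shock chaperones hold and refold proteins that have lost their shape. HSP70 proteins bind exposed hydrophobic stretches, J-domain proteins such as Dnajb1 bring them clients and stimulate their ATPase, HSP110 proteins such as Hsph1 exchange their nucleotide, and HSP90 proteins finish the folding of kinases and steroid receptors. When misfolded protein accumulates in the cytosol, chaperones are drawn away from heat shock factor 1, which then binds repeated GAA units in promoters and raises the inducible members, Hspa1a, Hspa1b, Dnajb1, Hsph1, Hspb1 and Bag3 among them. Hspa8 and Hsp90ab1 are the constitutive HSP70 and HSP90 of most cells. TRIM21 is a cytosolic ubiquitin ligase that binds the Fc part of antibodies. Comparing cells given protein with cells given PBS asks whether these mRNAs differed 16 h after electroporation with foreign protein. The proteins were an antibody that TRIM21 can bind and albumin, which it is not known to bind. How much protein entered the cytosol was not measured here.

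The promoters are shown because a pair of GAA units is part of the repeats through which heat shock factor 1 acts on the inducible members. The promoters of Hspa1a and Hspa1b are also near copies, like the genes themselves. RefSeq promoter windows (GRCm38.p6) were matched by symbol for 6 of the 10 genes, and the 250 bases before each start were searched for GAANNTTC and TTCNNGAA, each of which is its own reverse complement, so 1 search covers both strands. Hspa8, Hsp90aa1, Hsp90ab1 and Hsf1 were not matched. Such a pair was found for 4 genes, whose windows are printed 5′ to 3′ on the gene's strand with the pair in capitals. They are from chr17:34972157-34972406 (minus strand) for Hspa1a, chr17:34959239-34959488 (minus) for Hspa1b, chr5:149636337-149636586 (minus) for Hsph1 and chr5:135887669-135887918 (plus) for Hspb1.
Hspa1a: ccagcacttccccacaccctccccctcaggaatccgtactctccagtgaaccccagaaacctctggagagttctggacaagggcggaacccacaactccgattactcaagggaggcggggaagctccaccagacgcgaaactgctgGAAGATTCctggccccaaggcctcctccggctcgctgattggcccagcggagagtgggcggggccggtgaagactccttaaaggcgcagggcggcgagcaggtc
Hspa1b: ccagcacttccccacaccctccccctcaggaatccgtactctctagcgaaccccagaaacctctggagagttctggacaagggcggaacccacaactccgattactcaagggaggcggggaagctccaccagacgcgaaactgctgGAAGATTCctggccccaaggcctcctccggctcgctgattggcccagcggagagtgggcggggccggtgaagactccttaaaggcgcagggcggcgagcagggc
Hsph1: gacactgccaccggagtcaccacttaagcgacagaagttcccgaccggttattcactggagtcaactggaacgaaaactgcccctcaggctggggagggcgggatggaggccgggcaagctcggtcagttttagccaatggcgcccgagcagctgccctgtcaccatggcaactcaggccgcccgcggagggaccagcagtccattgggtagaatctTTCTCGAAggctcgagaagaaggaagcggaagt
Hspb1: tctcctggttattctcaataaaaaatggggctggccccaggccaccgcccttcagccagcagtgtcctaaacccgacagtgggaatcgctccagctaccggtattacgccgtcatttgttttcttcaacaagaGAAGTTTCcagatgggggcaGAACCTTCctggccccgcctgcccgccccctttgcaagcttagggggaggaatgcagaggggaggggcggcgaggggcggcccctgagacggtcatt
The windows of Hspa1a and Hspa1b differed at 3 of 250 bases, and both held GAAGATTC from base 104 to base 97 before the start. Hsph1 held TTCTCGAA at bases 33 to 26, and Hspb1 held GAAGTTTC at bases 117 to 110 and GAACCTTC at bases 97 to 90. The windows of Dnajb1 and Bag3 held neither spelling. Dnajb1 had windows for 2 starts, and that of start 2 lies inside the gene. Hsph1 also had windows for 2 starts, of which the first is printed, and its pair lies at bases 54 to 47 before start 2. Both Hsph1 windows overlap the GENCODE gene, whose 5′ end is at base 149636376, and the pair lies inside that gene. Over 32851 mouse promoter windows of the same length, 6.69% held GAANNTTC, 7.17% held TTCNNGAA and 12.8% held either. A match is a description of the letters and not of binding.

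Gene counts per library ran from 19509017 to 29766433. Trim21, the check of the labels, had 142 to 223 counts in the 9 WT libraries and 19900 to 32225 in the 9 TRIM21 libraries, a log2 difference of 7.02 (SE 0.0957; adjusted p = 2.319e-19, edgeR quasi-likelihood test). Counts from the fusion and from the cell's own Trim21 cannot be told apart. All 7 fibroblast markers were present, summing to 14520 to 29100 CPM per library (counts per 1000000 gene counts, scaled by edgeR's library factors), whereas 4 epithelial markers summed to 0.575 to 2.25 CPM with Krt5 at 0 in every library, 3 endothelial markers to 0.336 to 2.45 CPM, and 2 blood cell markers to 4.77 to 8.66 CPM, nearly all of it Cd68.

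One library stood apart for these genes. TRIM21_PBS 11, a control without added protein, was the highest of the 18 libraries for 7 of the 10 members (Hspa8, Hsp90aa1, Hsp90ab1, Hsph1, Dnajb1, Hspb1 and Hsf1) and the lowest for Bag3, as the plot of centred levels shows. Its fibroblast marker sum was also the lowest, 14520 CPM against 20520 and 24120 CPM in the other 2 libraries of its group and 20010 to 25030 CPM in the remaining TRIM21 libraries. Since it is 1 of only 3 PBS libraries of its line, values that move with it are given below with and without it. What lies behind the marker sum, and its part in the chaperone values, was not tested. WT_BSA 14 was the highest library for 3 members and the lowest for 4, and its marker sum, 29100 CPM, was the highest.

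**Figure D1:**
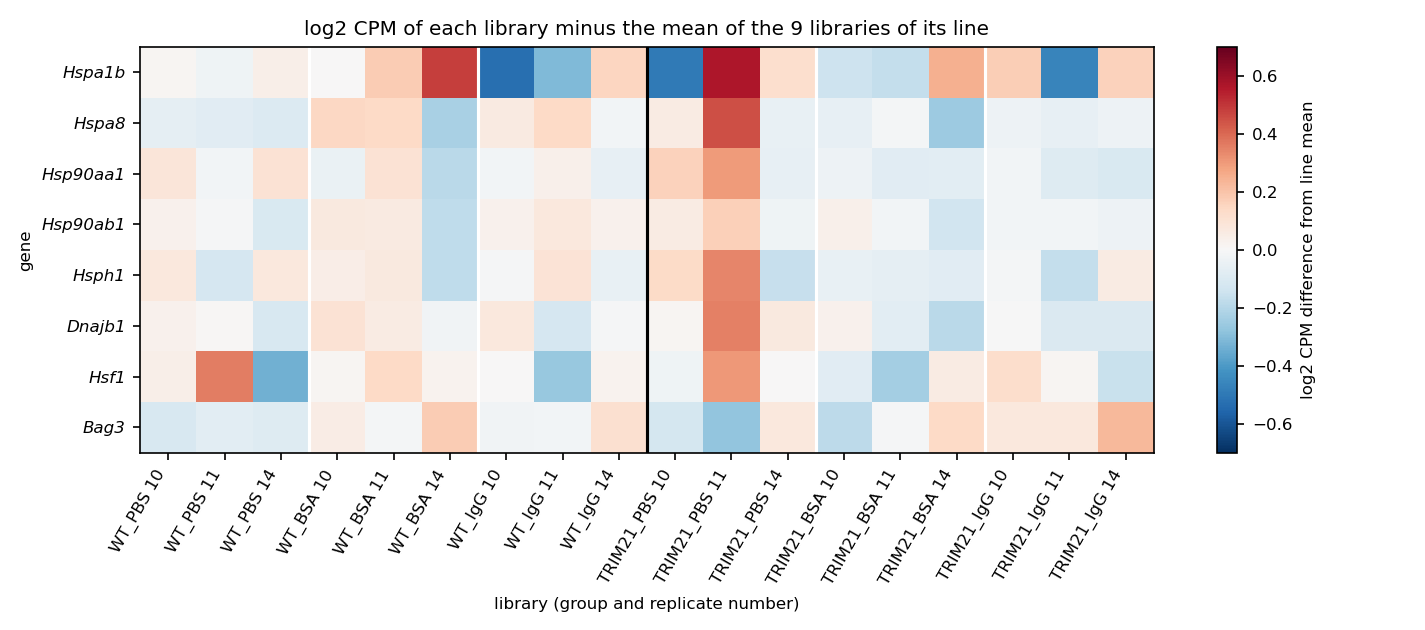
Each cell is the log2 CPM of a gene in a library minus the mean of the 9 libraries of the same line, for the 8 members above 1 CPM; columns are libraries by group and number, and red is higher. The column of TRIM21_PBS 11 is red for all but Bag3, which is lowest there at 83.0 CPM, and no protein-treated group is red throughout.

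These fibroblasts held large amounts of the constitutive chaperones and little of the strictly inducible ones. Per kilobase of exon, mean levels over the 18 libraries were 1358 ± 113 CPM/kb (SD, n = 18) for Hsp90ab1, 240.7 ± 31.3 for Hspa8 and 114.5 ± 12.3 for Hsp90aa1. The cochaperone Bag3 followed at 40.3 ± 3.69 CPM/kb, then Hsph1 at 26.5 ± 2.52, Dnajb1 at 19.0 ± 1.71 and Hsf1 at 7.77 ± 1.04. The inducible HSP70 genes were far below, Hspa1b at 3.33 ± 0.798 CPM/kb and Hspa1a at 0.119 ± 0.0808, with the small heat shock protein Hspb1 at 0.0671 ± 0.0723. Hsp90ab1 alone had the 10th highest CPM of all genes, Hspa8 the 92nd and Hspa1b the 9121st. In this order by library range, Bag3 (32.4 to 46.6 CPM/kb) overlapped Hsph1 (22.9 to 34.0), Hsph1 overlapped Dnajb1 (16.9 to 24.6), and Hspa1a overlapped Hspb1. The other neighbours had no library value in common. Together the 10 genes took 0.501% to 0.727% of each library's gene counts.

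Copies of these genes limit the levels of some. Of all 75-base stretches of the annotated exons, 52.7% of those of Hspa1a and 55.8% of those of Hspa1b occur in the other gene, 42.8% of those of Hsp90aa1, 33.0% of those of Hspa8 and 46.4% of those of Hspb1 occur in other annotated genes, and those of Hsph1, Dnajb1, Hsf1 and Bag3 occur in no other. The read length is not given in the sources used here, so 75 bases is a chosen value. Reads from shared stretches map to several places and are left out by a counter that takes unique reads only, so the counts of Hspa1a, Hspa1b, Hspb1, Hsp90aa1 and Hspa8 are uncertain. Divided by the number of distinct stretches instead of exon length, Hspa1b had 7.74 ± 1.86 CPM per 1000 stretches (SD, n = 18) and Hsf1 6.90 ± 0.922, which puts Hspa1b above Hsf1. The other members kept their order.

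**Figure D2:**
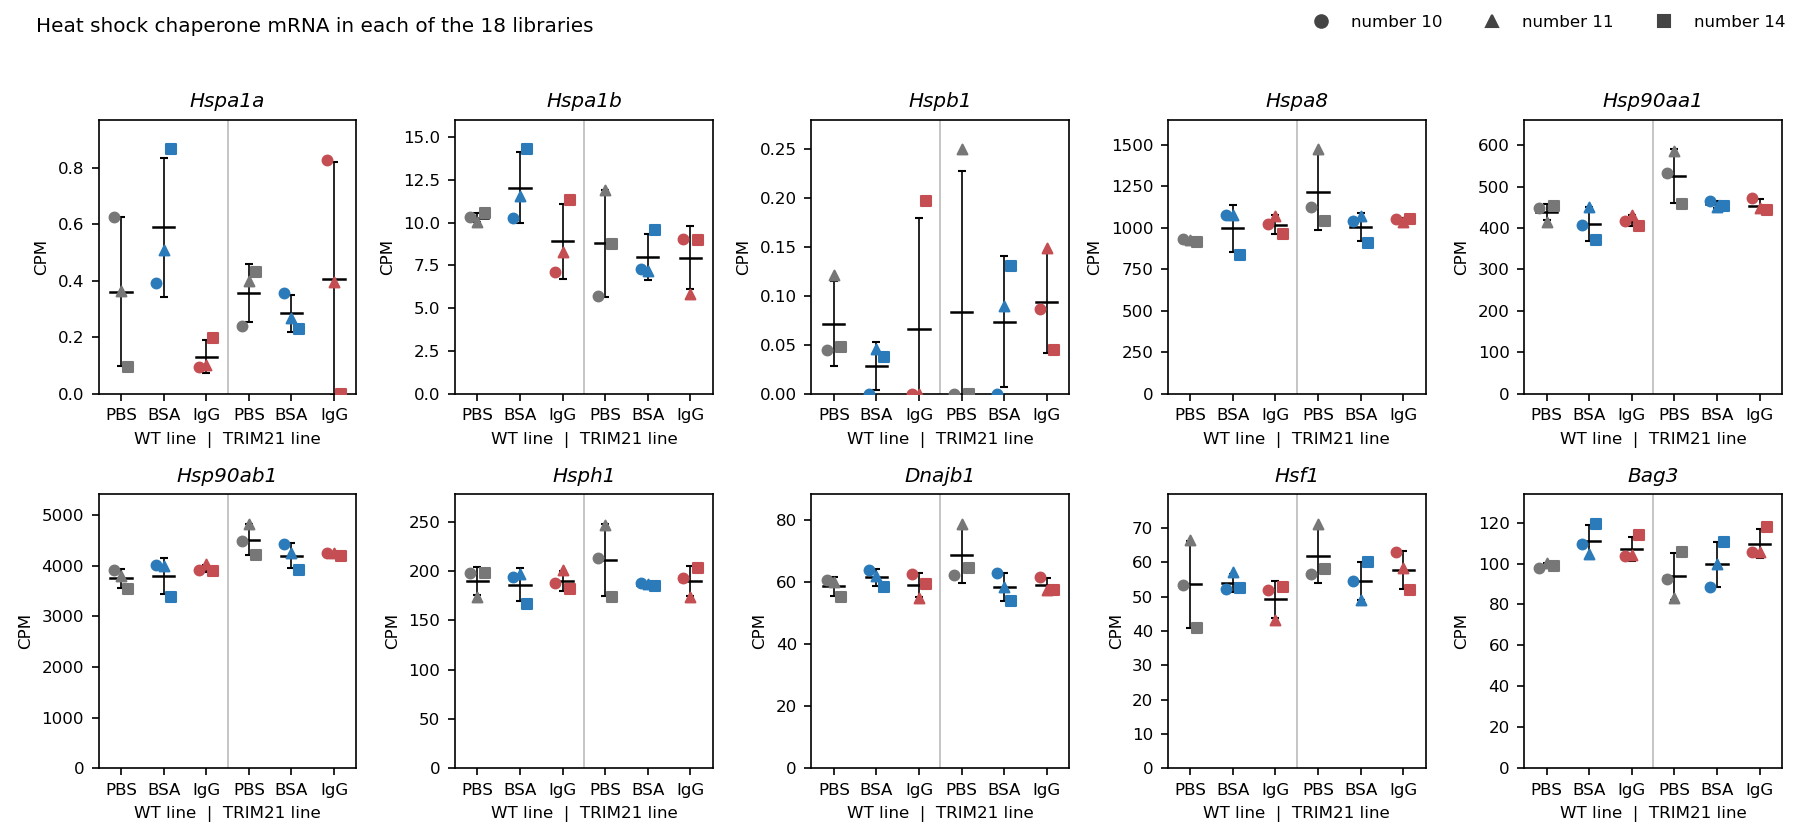
CPM of each of the 10 genes in the 18 libraries; points are libraries (shape gives the number 10, 11 or 14), black lines are group means and bars are 1 SD (n = 3, cut at 0), and every axis starts at 0. Hsp90ab1 lies between 3379 and 4831 CPM in all libraries and Hspa1b between 5.70 and 14.3, and the PBS point of number 11 in the TRIM21 line is the highest of its panel for 7 genes.

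No chaperone gene passed the test for delivered protein. With BSA and IgG pooled over both lines, 0 of 9 tested members passed an adjusted p of 0.05 against PBS (edgeR quasi-likelihood test), where 0% of all 12140 genes did, and 0 passed in DESeq2. At an unadjusted p under 0.05 there were 2, Hsp90aa1 and Bag3, in opposite directions, where 4.04% of all genes had such a p. The log2 differences of the 9 genes had a median of -0.09 against -0.00036 for all genes tested, with 8 below 0 and 1, Bag3, above. For the 8 members above 1 CPM, the 95% intervals lay between -0.36 and 0.28, so each interval excluded a change of 2-fold or more. Without TRIM21_PBS 11 the median was -0.02, 5 lay below 0 and 4 above. None then had an unadjusted p under 0.05, where 2.11% of all genes did. The 7 fibroblast markers lay the other way in this comparison, 7 of 7 above 0 with a median of 0.15 (0.06 without that library) and none past the threshold, and their part in the result was not tested.

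Within each line no member passed either. In WT cells IgG against PBS gave 0 of 9 members past the adjusted threshold and 0 past the unadjusted one, where 0% and 2.68% of all genes passed, and 5 of the 9 differences lay above 0. BSA against PBS in WT cells gave 0 and 0 members, against 0% and 2.49% of genes, with 7 of 9 above 0. In TRIM21 cells IgG against PBS gave 0 members past the adjusted threshold and 3 past the unadjusted one (Hsp90aa1, Dnajb1 and Bag3), where 0% and 5.61% of genes passed, and BSA against PBS gave 0 and 2 (Hspa8 and Dnajb1), against 0% and 3.68%. Of the 9 differences 2 lay above 0 for IgG and 1 for BSA. Both sets of unadjusted calls were at 0 without TRIM21_PBS 11, where the shares of all genes were 0.760% and 0.589%. The 2 comparisons with PBS in a line share its PBS libraries.

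**Figure D3:**
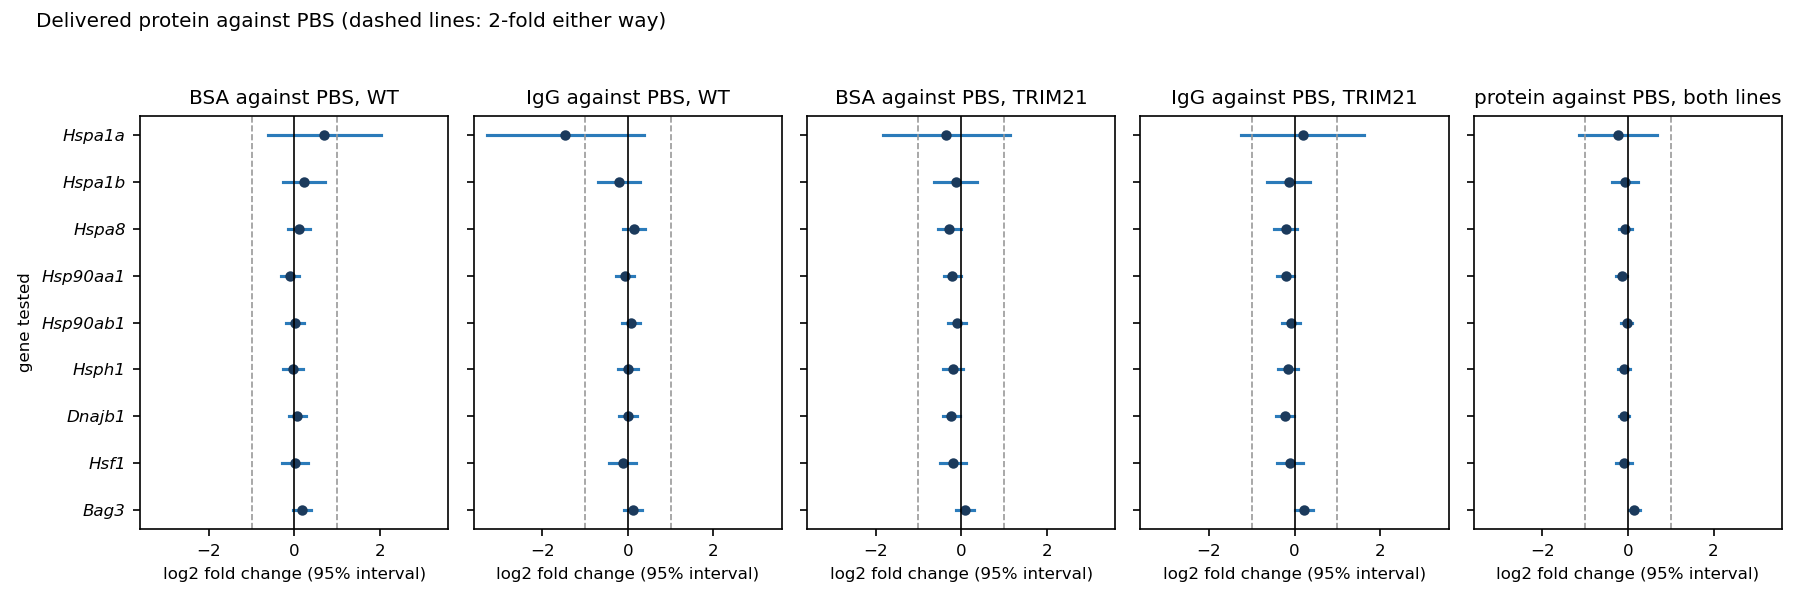
Log2 fold change (points) with its 95% interval (bars) for the 9 tested genes, against PBS, by line and over both lines; the dashed lines mark 2-fold either way. Every interval except that of the scarce Hspa1a lies between the dashed lines in the panel of both lines, where those of the 8 more abundant genes run from -0.36 to 0.28.

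Hspa1b, the inducible HSP70 gene with the more counts, was low in every library. In WT cells it had 10.3, 10.01 and 10.5 CPM after PBS, 10.2, 11.6 and 14.3 after BSA, and 7.11, 8.27 and 11.3 after IgG. In TRIM21 cells it had 5.70, 11.9 and 8.72 CPM after PBS, 7.27, 7.15 and 9.55 after BSA, and 9.05, 5.84 and 8.97 after IgG. The highest library was a WT one given BSA and the lowest a TRIM21 one given PBS, and the treatment groups overlapped in both lines. Over both lines delivered protein differed from PBS by -0.06 on the log2 scale (95% interval -0.36 to 0.24; adjusted p = 0.978, edgeR). The sign turned to 0.08 without TRIM21_PBS 11. IgG in TRIM21 cells differed from PBS by -0.14 (95% interval -0.64 to 0.36; adjusted p = 0.860, edgeR), and by 0.15 without TRIM21_PBS 11. With the counts of Hspa1a and Hspa1b summed, the difference between protein and PBS over both lines was -0.06 (SE 0.143). Most counts of this sum are those of Hspa1b. It brings back no reads left out as shared, so it does not address the copies.

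Hspa1a, the other inducible copy, was near the detection floor. Its counts were 14, 9 and 2 after PBS, 9, 11 and 23 after BSA and 2, 2 and 4 after IgG in WT cells. In TRIM21 cells they were 5, 8 and 12 after PBS, 9, 6 and 7 after BSA and 19, 8 and 0 after IgG. The floor of 3 counts corresponds to 0.0981 to 0.152 CPM, and a library at 0 counts allows up to that level, for counting error only. In WT cells all 3 IgG libraries lay below all 3 BSA libraries. Such a separation downward occurred in 7.18% of all genes. The fitted log2 difference of IgG against BSA was -2.16 (SE 0.791; unadjusted p = 0.0140, adjusted p = 0.741, edgeR), 1 of 9 members with an unadjusted p under 0.05 where 5.87% of genes had one, and 0 of 9 past the adjusted threshold where 0% of genes were. Without WT_BSA 14 it was -1.75 (unadjusted p = 0.0713). Hspa1b gave -0.44 (SE 0.234; adjusted p = 0.741, edgeR) in the same comparison, and -0.30 without that library.

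Hspb1, the small heat shock protein HSP27 known as Hsp25 in mouse, was listed with 0 to 5 counts in each of the 18 libraries. Summed over 3 libraries it had 5, 2 and 4 counts after PBS, BSA and IgG in WT cells and 5, 6 and 6 in TRIM21 cells. All group sums lay within 4 counts of each other. The gene was too scarce to test at this depth, and 46.4% of its 75-base stretches occur in other genes.

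Hspa8, the constitutive HSP70, was abundant in WT cells, at 934, 927 and 913 CPM after PBS, 1079, 1077 and 836 after BSA and 1022, 1075 and 964 after IgG. In TRIM21 cells it had 1125, 1476 and 1043 CPM after PBS, 1039, 1071 and 907 after BSA, and 1055, 1038 and 1057 after IgG. All 3 WT libraries given IgG lay above all 3 given PBS, which 3.79% of genes did, whereas the groups overlapped in TRIM21 cells. The log2 difference of IgG against PBS was 0.14 in WT cells (95% interval -0.12 to 0.41; adjusted p = 1, edgeR) and -0.21 in TRIM21 cells (-0.47 to 0.05; adjusted p = 0.724). For BSA against PBS it was 0.11 in WT cells and -0.27 in TRIM21 cells, neither past the threshold. Without TRIM21_PBS 11, the 2 TRIM21 values became -0.03 and -0.09.

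Hsph1, the HSP110 partner of HSP70, ran from 167 to 247 CPM over the 18 libraries, with group means from 186 ± 16.9 (WT, BSA) to 211.5 ± 36.5 CPM (TRIM21, PBS; SD, n = 3 each). Delivered protein differed from PBS by -0.09 over both lines (95% interval -0.24 to 0.05; adjusted p = 0.952, edgeR), and by -0.02 without TRIM21_PBS 11. In TRIM21 cells the 3 libraries given BSA spanned only 184 to 188 CPM while the 3 given PBS spanned 174 to 247.

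Dnajb1, the J-domain partner that is a standard readout of heat shock factor activity, had 60.8, 59.9 and 55.1 CPM after PBS, 63.9, 62.1 and 58.5 after BSA and 62.7, 55.0 and 59.2 after IgG in WT cells. In TRIM21 cells it had 62.3, 78.8 and 64.6 CPM after PBS, 63.1, 58.5 and 54.1 after BSA and 61.6, 57.5 and 57.6 after IgG. Here all 3 TRIM21 libraries given IgG lay below the 3 given PBS, which 5.90% of genes did. The log2 difference of IgG against PBS was -0.22 in TRIM21 cells (SE 0.0967; adjusted p = 0.724, edgeR) and 0.01 in WT cells (SE 0.0969), and that of BSA against PBS in TRIM21 cells was -0.23 (SE 0.0965; adjusted p = 0.841). Without TRIM21_PBS 11 the TRIM21 values were -0.09 for IgG and -0.10 for BSA.

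Neither HSP90 gene passed for delivered protein. Hsp90aa1, the stress-inducible HSP90, had 447, 415 and 452 CPM after PBS, 407, 452 and 369.8 after BSA and 416, 432 and 405 after IgG in WT cells. In TRIM21 cells it had 533, 587 and 458 CPM after PBS, 465, 451 and 453 after BSA, and 471, 448 and 443 after IgG. The groups overlapped in both lines. Protein against PBS over both lines gave -0.15 (95% interval -0.27 to -0.02; unadjusted p = 0.0248, adjusted p = 0.952, edgeR), and -0.09 without TRIM21_PBS 11. IgG against PBS in TRIM21 cells gave -0.21 (SE 0.0972; adjusted p = 0.724, edgeR), and -0.10 without that library. Hsp90ab1, the constitutive HSP90, gave -0.03 for protein against PBS over both lines (95% interval -0.15 to 0.10; adjusted p = 0.978, edgeR), and 0.01 without that library.

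Hsf1, the factor itself, is regulated mainly as a protein, by trimer formation and phosphorylation, so its mRNA does not measure its activity. Its level ran from 41.0 to 66.4 CPM among the 3 WT libraries given PBS and from 43.0 to 71.2 CPM over the other 15 libraries. Protein against PBS over both lines gave -0.10 (95% interval -0.29 to 0.09; adjusted p = 0.952, edgeR), -0.03 without TRIM21_PBS 11 and -0.0065 without WT_PBS 11.

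Bag3, the HSP70 cochaperone that steers aggregated clients to autophagy, was the 1 member of the 9 tested with a difference above 0 for protein against PBS over both lines, and 1 of 4 without TRIM21_PBS 11. In WT cells it had 97.6, 100.1 and 98.9 CPM after PBS, 109, 104 and 119 after BSA and 104, 104 and 114 after IgG. In TRIM21 cells it had 92.3, 83.0 and 106 CPM after PBS, 88.3, 99.8 and 111 after BSA and 106, 105 and 118 after IgG. In WT cells every library given protein lay above every one given PBS, which 2.22% of genes did for BSA and 3.79% for IgG. In TRIM21 cells both protein groups overlapped PBS, IgG only narrowly, at 105.488 and 105.688 CPM against a highest PBS value of 105.694 CPM. Between libraries of the same number, Bag3 was higher after IgG than after PBS in 3 of 3 pairs in each line. After BSA it was higher in 3 of 3 pairs in WT and 2 of 3 in TRIM21 cells. The share of all genes with such pairs was not counted. Over both lines protein differed from PBS by 0.15 on the log2 scale, or 1.11-fold (95% interval 1.01 to 1.21; unadjusted p = 0.0265, adjusted p = 0.952, edgeR), so the difference did not pass the test over all genes. IgG against PBS in TRIM21 cells gave 0.23 (SE 0.1003; adjusted p = 0.724, edgeR). Without TRIM21_PBS 11, where Bag3 was lowest, these were 0.12 and 0.16.

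Antibody against albumin, which sets 2 delivered proteins side by side, showed no member past the adjusted threshold in TRIM21 cells, 0 of 9 where 0% of genes passed. At an unadjusted p under 0.05 the count was 0 of 9, where 0.371% of genes passed, and the median log2 difference was 0.03 against -0.0054 for all genes. Bag3 had 0.14 in this comparison (SE 0.1001; adjusted p = 1.00, edgeR), and 0.06 without TRIM21_BSA 10 or 0.22 without TRIM21_BSA 14.

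The interaction tests ask whether a treatment difference in TRIM21 cells differed from that in WT cells. For IgG against PBS 0 of 9 members passed at the adjusted threshold and 0 at the unadjusted one, where 0% and 1.82% of genes did. Hspa8 had an interaction of -0.35 (95% interval -0.73 to 0.02; adjusted p = 0.972, edgeR) and Dnajb1 one of -0.23 (-0.52 to 0.06; adjusted p = 0.972). Without TRIM21_PBS 11 these were -0.17 and -0.10. For BSA against PBS, which involves no antibody, 0 of 9 passed the adjusted threshold and 2 the unadjusted one, where 0% and 6.51% of genes did: Hspa8 at -0.38 (SE 0.177) and Dnajb1 at -0.30 (SE 0.137), both with adjusted p = 0.651 (edgeR). All 9 members had a negative interaction there, with a median of -0.19 against -0.0017 for all genes. They stayed negative without TRIM21_PBS 11, but the median was then -0.08, Hspa8 was at -0.21 and Dnajb1 at -0.18, and none had an unadjusted p under 0.05, where 2.73% of genes did. For IgG against BSA 0 of 9 passed the adjusted threshold and 1 the unadjusted one, where 0% and 3.97% of genes did, and this was the scarce Hspa1a at 2.69 (SE 1.07; adjusted p = 0.844, edgeR), which was 2.29 without WT_BSA 14 and 1.59 without TRIM21_IgG 10. Of the 9 interactions 6 lay above 0, with a median of 0.07 against -0.0045 for all genes. All 9 did without WT_BSA 14, with a median of 0.15 against 0.02. None then had an unadjusted p under 0.05, where 3.48% of genes did.

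Between the lines, averaged over treatments, the HSP90 genes came nearest to the threshold. Hsp90ab1 had 3908, 3800 and 3549 CPM after PBS, 4013, 3988 and 3379 after BSA and 3906, 4024 and 3903 after IgG in WT cells. In TRIM21 cells it had 4482, 4831 and 4217 CPM after PBS, 4422, 4251 and 3924 after BSA and 4260, 4250 and 4201 after IgG. It was thus higher in the TRIM21 line in all 9 pairs of libraries with the same treatment and number, and Hsp90aa1 was higher in 8 of 9. How many of all genes had such pairs was not counted, and the labels name no shared batch behind the numbers. The log2 differences were 0.17 for Hsp90ab1 (SE 0.0574; adjusted p = 0.0880) and 0.18 for Hsp90aa1 (SE 0.0561; adjusted p = 0.0657). In edgeR without a replicate block 0 of 9 members thus passed, where 6.18% of genes did. An unadjusted p under 0.05 was found for 3, where 21.4% of genes had one. With the block edgeR called both HSP90 genes (adjusted p = 0.0281 for Hsp90ab1 and 0.0303 for Hsp90aa1). The count over all genes with the block is given in the closing section. DESeq2 called both HSP90 genes (adjusted p = 0.00689 and 0.0195), and 8.57% of genes. Without TRIM21_PBS 11 the differences were 0.15 and 0.14. Hsp90aa1 passed in edgeR without TRIM21_PBS 14, at 0.21 (adjusted p = 0.0196), and without WT_BSA 11, at 0.20 (0.0448).

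Hspa1b differed the other way. TRIM21 against WT gave -0.33 on the log2 scale (SE 0.136; unadjusted p = 0.0272, adjusted p = 0.172, edgeR), at 8.24 against 10.4 CPM on average. Hspa1b was higher in the TRIM21 line in 2 of 9 pairs, and the share of all genes with such pairs was not counted. Without TRIM21_PBS 11 the difference was -0.42 (adjusted p = 0.0663, edgeR). Within BSA the difference was -0.59 (SE 0.232; adjusted p = 0.369, edgeR), 1 of 9 members with an unadjusted p under 0.05, where 10.3% of genes had one, and 0 of 9 passed, where 0.848% of genes did. The copies of this gene make its level uncertain, as given above, and without WT_BSA 14, its highest library, the difference within BSA was -0.45. The remaining members had log2 differences from -0.07 (Bag3) to 0.18, with 0.15 for Hspa8 (adjusted p = 0.245, edgeR; 0.09 without TRIM21_PBS 11), 0.15 for Hsf1 (0.311), 0.05 each for Hsph1 (0.685) and Dnajb1 (0.632), and 0.18 for Hspa1a (0.845), whose mean CPM was lower in TRIM21 cells (0.349 against 0.360).

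In PBS alone, Hspa8 was higher in TRIM21 cells by 0.39 (SE 0.126; adjusted p = 0.125, edgeR), Hsp90ab1 by 0.27 (SE 0.0995; 0.171), Hsp90aa1 by 0.26 (SE 0.0972; 0.167) and Dnajb1 by 0.23 (SE 0.0966; 0.212). These were 4 of 9 members with an unadjusted p under 0.05, where 19.8% of genes had one, and 0 of 9 passed, where 1.71% of genes did. With TRIM21_PBS 11 left out, 1 of 9 had such a p, where 7.3% of genes did. The median of the 9 then went from 0.21 to 0.08. Without TRIM21_PBS 11 the differences were 0.21 for Hspa8 (adjusted p = 0.736, edgeR), 0.20 for Hsp90ab1, 0.16 for Hsp90aa1 and 0.10 for Dnajb1, while without TRIM21_PBS 14 Hspa8 passed at 0.49 (adjusted p = 0.0358) and Hsp90aa1 at 0.35 (0.0390). DESeq2 called Hspa8 (adjusted p = 0.0431) and Hsp90ab1 (0.0310), and 3.71% of genes. With a replicate block edgeR called Hspa8 at 0.38 (adjusted p = 0.0363). In cells given IgG 0 of 9 members passed the adjusted and 0 the unadjusted threshold, where 0.774% and 7.79% of genes did.

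Another 56 chaperone and cochaperone genes in 9 lists gave the setting, 54 of them tested. None passed in any comparison of treatments or any interaction (edgeR, all 54). For protein against PBS over both lines 4 of the 54 had an unadjusted p under 0.05 (Dnaja1, Hspa14, Hspe1 and Ppid, each below 0), where 4.04% of all genes did. In this comparison 16 lay above 0, and the median was -0.05. Without TRIM21_PBS 11 there was 1 such gene, where 2.11% of all genes had such a p, 24 lay above 0 and the median was -0.01. By role, the medians of this comparison were -0.07 for 4 HSP70 and HSP110 relatives, -0.03 for 8 J-domain partners, 0.04 for 5 small heat shock proteins, -0.06 for 10 HSP90 cochaperones and -0.03 for 8 HSP70 cochaperones. They were -0.05 for 3 heat shock factors and regulators, -0.08 for 8 subunits of TRiC, the cytosolic chaperonin that folds actin and tubulin, -0.11 for 4 mitochondrial chaperones and -0.03 for 4 chaperones of the endoplasmic reticulum. The list medians thus ran from -0.11 to 0.04.

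For IgG against PBS in TRIM21 cells, 0 of the 54 passed and 7 had an unadjusted p under 0.05, all below 0, where 0% and 5.61% of all genes did. Among them were Hspe1 at -0.46 (71.6 against 98.3 CPM), the mitochondrial cochaperonin, Ppid at -0.34, a cyclophilin that works with HSP90, and Stip1 at -0.28, the adaptor that links HSP70 to HSP90 (adjusted p = 0.724 for each, edgeR). Without TRIM21_PBS 11 they were at -0.25, -0.16 and -0.07. All 8 TRiC subunits lay below 0, from -0.27 to -0.19, and all 7 fibroblast markers lay above 0, with a median of 0.30 and none past the threshold. Without that library the TRiC subunits ran from -0.12 to -0.03 and the marker median was 0.09. The 54 genes had a median of -0.13 in this comparison and -0.03 without TRIM21_PBS 11, where none had an unadjusted p under 0.05 and 0.760% of all genes did. These named genes were chosen after their values were seen.

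Between the lines 2 of the 54 genes passed, in opposite directions, where 6.18% of all genes did. Hspa2, an HSP70 relative best known from the testis, fell, with a log2 difference of -0.61 (SE 0.139; adjusted p = 0.0123, edgeR; 10.6 CPM in TRIM21 against 16.1 in WT), and Hspd1, the mitochondrial chaperonin HSP60, was higher by 0.28 (SE 0.0756; adjusted p = 0.0307; 809 against 662 CPM). The call of Hspa2 held in all 18 fits that left out 1 library, whereas Hspd1 missed the threshold in 12 of them, with differences from 0.21 to 0.33 over all 18 and adjusted p of at most 0.0761. The fibroblast markers lay mostly the other way, 6 of 7 below 0 with a median of -0.25, and Thy1 passed at -0.29 (adjusted p = 0.0207, edgeR; 0.0541 without TRIM21_IgG 10). Leaving out TRIM21_PBS 11, the library with the lowest marker sum, put Thy1 at -0.24 (adjusted p = 0.0160, edgeR). The marker median without that library is not given here. The part of the marker shift in the chaperone values was not tested.

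**Figure D4:**
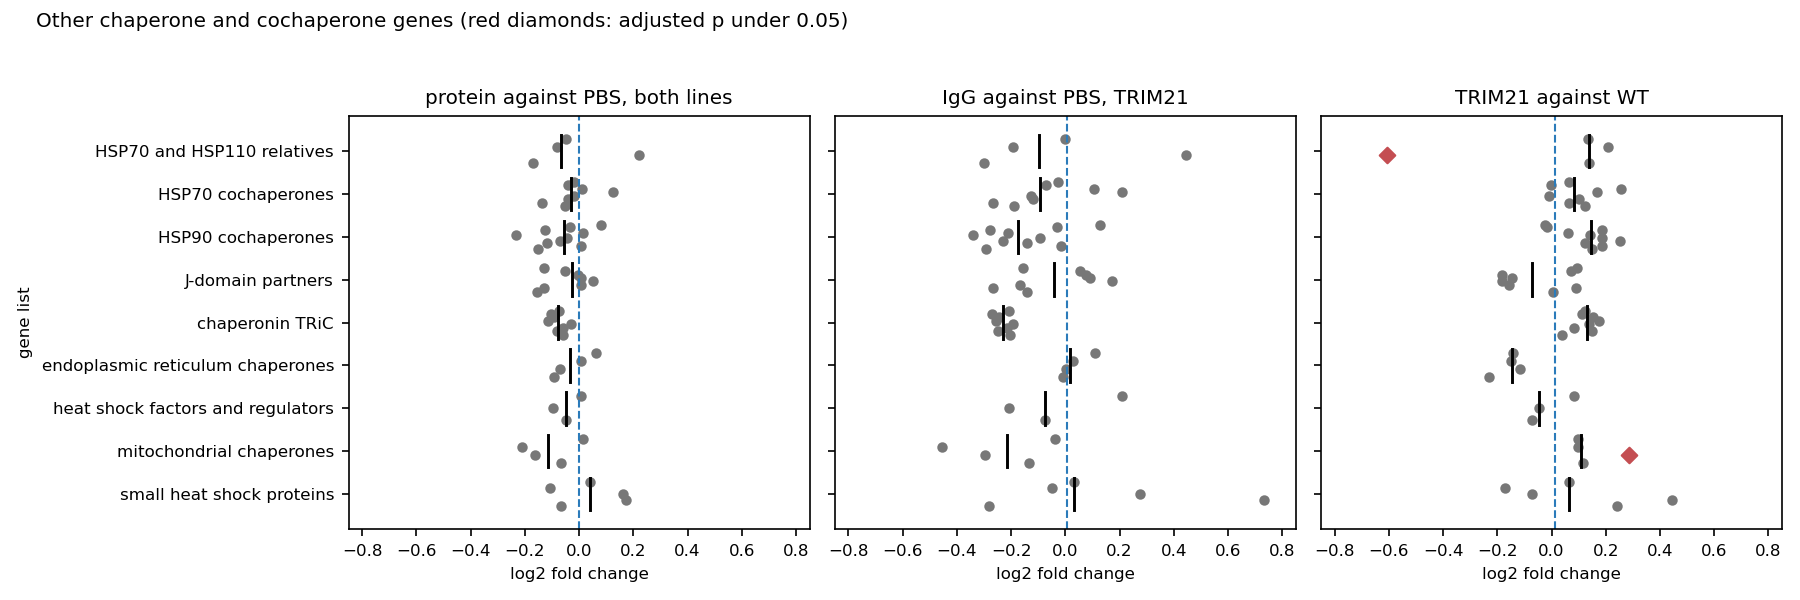
Log2 fold change of each of the 54 other tested chaperone genes (points) by list, with list medians (black bars) and the median of all 12140 genes (dashed line), in 3 comparisons; red diamonds passed an adjusted p of 0.05. Only the comparison of lines holds diamonds, Hspa2 at -0.61 and Hspd1 at 0.28.

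Likeness to the members was described over the 18 libraries. It was Pearson's r between a gene's log2 CPM, centred within each line, and the mean of the 9 tested members treated the same way, a mean in which the scarce Hspa1a weighed most (r = 0.855). The 5 highest were Twist2 (r = 0.885), 3110082I17Rik (0.878), Id1 (0.872), Chmp6 (0.870) and Cdt1 (0.864), and none is in the 9 chaperone lists. The points share depth and library preparation within a library, and the values describe these 18 libraries only. Among the members Hsf1 had r = 0.726 to that mean, Dnajb1 0.682 and Hspa1b 0.582, while Hspa8 had 0.337, Hsp90aa1 0.334, Hsp90ab1 0.280, Hsph1 0.189 and Bag3 -0.274. The mean thus followed Hspa1a, at 0 to 23 counts a library, more than the abundant chaperones.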

How the data were processed

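Poly(A)-selected, strand-specific RNA libraries of 18 samples were counted per gene by the authors, who deposited 1 table of whole-number counts per sample. Per the submitters' processing notes, bcl2fastq 2.19.1.403, FastQC 0.11.5, STAR 2.5.1b, HTSeq 0.6.0 and DESeq2 1.6.3 were used with build mm10. The annotation, strand setting and read length are not given in the sources used here. The 5 closing lines of each table that name no gene were left out; reads in no gene were 13.1% to 18.8% of each library's reads in the sum of gene, unassigned and ambiguous lines. Counting floors cover counting error only, since there are no molecular identifiers.

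Samples were grouped by line and treatment from the labels. Genes passing filterByExpr (12140 of 24062) were fitted in edgeR 4.0.16 (R 4.3.3) with TMM factors (0.977 to 1.03), 1 mean for each of 6 groups and no replicate block. Quasi-likelihood tests were adjusted by Benjamini-Hochberg within each of 17 comparisons, with a threshold of 0.05. Standard errors and 95% intervals were derived from the log2 change and its F statistic. The fit was also run on simulated counts, drawn independently around 1 mean per gene with changes set in the TRIM21 IgG group. These held no line difference and no link between same-numbered libraries, so they do not test the fit in those respects. Gene models came from GENCODE M21 on GRCm38 and promoters from RefSeq; 75-base stretches were compared across all annotated exons. Alternatives were DESeq2 1.42.0, its size factors, 2 other filters, a replicate block, fits of 1 line alone, leaving out each library, and summed Hspa1a and Hspa1b. That sum, and the counts and medians of the lists without TRIM21_PBS 11, were chosen after seeing the data.

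The shared numbers 10, 11 and 14 were checked as pairs: deviations of same-numbered libraries correlated at 0.218 on average (-0.323 to 0.578), above 0.1 in 32 of 45 pairs. Of 18 libraries, 16 correlated best with their own number. The correlations were thus uneven but mostly positive. Because the labels name no shared batch, the main fit has no replicate block, and fits with a block are given in the closing section. Replicates differed by more than sampling noise in all 18 pairs within groups (chi-square over degrees of freedom 10.7 to 83.7).

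The 10 genes were all named. From the other lists the rule named up to 5 genes past the threshold in each comparison, plus Trim21 and the 5 genes most like the members' mean. The members and lists were chosen with earlier results of these data known.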

Additional observations from a re-analysis of the deposited data

Results flagged for a closer look

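The checks, 18 in all and 1 for each tested member among the 9 libraries of each line, used log2 CPM with a prior count of 2. In 3 of them a single library lay farther from the rest than the critical ratio of 0.493 allows. For 9 values of 1 group, chance alone does so in about 1 of 20. Here the members share libraries and each set of 9 pools 3 treatments, so that rate cannot be set against the 3 flags. Hspa8 was at 1476 CPM in TRIM21_PBS 11, and Dnajb1 was at 78.81 CPM in the same library, each the highest of its line. Hspa1a was at 0 CPM in TRIM21_IgG 14, where 0 counts allow up to 0.1345 CPM. The log2 scale stretches values near 0, so the flag of Hspa1a rests on few counts. For Hspa8 and Dnajb1, the differences from PBS in the TRIM21 line shrank without TRIM21_PBS 11 but kept their sign. They are given with and without that library above.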

How the results depend on the processing

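The call of 0 members for every comparison of treatments and every interaction held in each refit, where the smallest adjusted p was 0.197. Over 3689 refits of 153 member values, 143 changed sign, 129 of them on leaving out a library, and apart from the scarce Hspa1a none of these had a main value beyond 0.23. Leaving out single libraries gave, for IgG against PBS, -0.028 to 0.065 for Dnajb1 in WT cells and, in TRIM21 cells, -0.91 to 0.78 for Hspa1a, -0.37 to 0.15 for Hspa1b and -0.17 to 0.028 for Hsf1. For protein against PBS over both lines it gave -0.50 to 0.076 for Hspa1a, -0.18 to 0.085 for Hspa1b, -0.10 to 0.035 for Hspa8 and -0.044 to 0.011 for Hsp90ab1, and for the lines -0.19 to 0.37 for Hspa1a.

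Calls between the lines did depend on the setting. With the replicate block 2 members passed over all treatments, Hsp90aa1 at 0.18 (adjusted p = 0.0303, edgeR) and Hsp90ab1 at 0.17 (0.0281), and DESeq2 also called 2. In PBS the block called 1, Hspa8 at 0.38 (0.0363), and DESeq2 called 2. Leaving out 1 library gave 0 to 1 members over all treatments, Hsp90aa1 passing without TRIM21_PBS 14 or WT_BSA 11, and 0 to 2 in PBS. The block changed no other member's call, and 16 of 18 libraries correlated best with their own number, a hint from the data and not the design.

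Over all genes, IgG against PBS in both lines gave 0 calls, 1 with the block and 5 in DESeq2. The 750 genes called between the lines became 1462 with the block and 517 to 1268 on leaving out a library, the highest without TRIM21_PBS 14. Within PBS, 208 became 132 with at least 10 counts in every sample, 847 with the block, 451 in DESeq2 and 104 (without WT_PBS 14) to 1018 (without TRIM21_PBS 14) on leaving out a library, with 122 without TRIM21_PBS 11. Within BSA, 103 became 53, 187 and 164 under those 3 settings, and 66 to 138 on leaving out a library (66 without TRIM21_BSA 10, 67 without TRIM21_BSA 14 or WT_BSA 14). Within IgG, 94 became 57, 173 and 166, and 69 to 148, the highest without TRIM21_PBS 11. The causes were not tested. Depth limits Hspa1a and Hspb1, which stood at or near the floor.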
